A study of Mus musculus with 4 samples.

Results

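Forkhead transcription factors are DNA-binding proteins that share the winged-helix forkhead domain, and they pattern mesoderm, lung, gut and kidney, drive ciliogenesis and the cell cycle, and relay insulin signalling. The peaks described here are the ATAC-seq peaks that the authors assigned to a gene named Fox followed by a letter and a number, without Foxa1, Foxa2 and Foxa3. This rule took 240 of the 80881 peaks in the authors' deposited table, at 37 genes, from 1 peak (Foxb1, Foxe3, Foxj3 and Foxo4) to 52 peaks (Foxp1) per gene. Each forkhead peak was a window of 401 bp in mm10 coordinates.

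ATAC-seq uses a transposase to insert adapters into open DNA, so that the reads in a window reflect how accessible it was. The cells came from 1 mouse lung adenocarcinoma line of a KP tumour, made to express SpCas9 from a lentiviral vector with puromycin selection, which the labels call KPC cells. A lentiviral CRISPR activation vector (lenti-SAM-Hygro) carried a guide against Malat1, a nuclear long noncoding RNA (mA2 dRNA), or against luciferase, which the mouse genome lacks (Con dRNA). Both groups therefore carried Cas9 and the activation vector, and each had 2 libraries. The question was whether raising Malat1 changes chromatin accessibility.

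Values are group means of normalized reads in a peak, as the authors computed them. The columns for single libraries match no sample label and were left aside, so the spread between libraries, and whether the libraries of the 2 groups overlap, was not analysed here. A peak was called where the authors' deposited table listed an adjusted p below 0.05. Where a standard error is given, it is approximate: it was worked back from the authors' p under a two-sided normal test. The series describes the 2 libraries of a group as biological replicates and gives no further source, so the spread behind the authors' p may be technical. RNA was not measured, so an open window near a gene says nothing here about its transcript, and an assigned gene is often only the nearest one.

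Of the labelled cell type's 12 markers, 8 had a peak within 3 kb of the start site. Peaks lay at the promoters of the keratin genes Krt8, Krt18 and Krt19 and of Cdh1, and weakly near the surfactant genes Sftpb and Sftpc, with 33.5 and 33.8 reads over both groups. The lung lineage factor Nkx2-1 had 2 such peaks, with 76.5 and 34.9 reads. No peak within 3 kb was listed for Epcam, Napsa, Cldn4 or Sftpa1. Of 7 fibroblast markers 5 had such a peak (55.8 to 760 reads), of 5 endothelial markers 1 (Kdr, 43.2 reads) and of 7 leukocyte markers 2 (Cd68 and Csf1r). None of these marker peaks was called. Summed over the peaks within 3 kb, reads were higher under the Malat1 guide in every marker list. Sums over all peaks were higher too, with a ratio of 1.07. The fibroblast markers held 2293 under the Malat1 guide and 1904 under the luciferase guide, and those of the labelled cell type 3270 and 3036. Peak by peak, 9 of 10 fibroblast peaks averaged higher. Of the 15 peaks of the labelled cell type 8 did, with a median difference of 0.004, and both Nkx2-1 peaks averaged lower. Leukocyte markers held 373 and 322, and the endothelial peak 54.4 and 32.0. The part of these differences in the forkhead results was not tested.

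Forkhead genes stand near the ends of several signalling paths. Hedgehog signalling acts on Foxf1, Foxf2 and Foxl1 in the mesenchyme of lung and gut, Foxc1 and Foxc2 act in blood vessels and mesenchyme, Foxs1 is a factor of pericytes and neural crest derivatives, and FoxO factors are held out of the nucleus by Akt. Foxf1, Foxc2 and Foxl1 are neighbours on chromosome 8, and Foxq1, Foxf2 and Foxc1 on chromosome 13.

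Sequence of the start-site region was at hand for 21 of the 37 genes, among them Foxd1, Foxd2, Foxf2 and Foxc1. The lines below give, 5′ to 3′ on the gene's strand, the RefSeq bases (GRCm38) that lie before the start site and inside the ATAC-seq peak over it. They are shown because the group means of these 4 promoter peaks differed by at most 0.23 on the log2 scale and none was called, 2 of them at genes with a called distal peak and 2 in the chromosome 13 cluster. Capitals mark CG dinucleotides. The Foxd2 bases lie at chr4:114908899-114909148 on the minus strand. Those of Foxd1 lie at chr13:98354043-98354244, of Foxf2 at chr13:31625587-31625815 and of Foxc1 at chr13:31806396-31806645, all on the plus strand.
Foxd2: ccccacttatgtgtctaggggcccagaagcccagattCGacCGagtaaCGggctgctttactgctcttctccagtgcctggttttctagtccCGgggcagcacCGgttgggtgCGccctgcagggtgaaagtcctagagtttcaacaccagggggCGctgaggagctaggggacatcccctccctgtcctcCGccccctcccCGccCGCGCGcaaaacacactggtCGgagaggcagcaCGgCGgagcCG
Foxd1: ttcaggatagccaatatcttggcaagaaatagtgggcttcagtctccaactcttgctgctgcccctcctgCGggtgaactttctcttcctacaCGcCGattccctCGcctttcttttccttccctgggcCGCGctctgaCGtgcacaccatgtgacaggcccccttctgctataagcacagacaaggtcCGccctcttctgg
Foxf2: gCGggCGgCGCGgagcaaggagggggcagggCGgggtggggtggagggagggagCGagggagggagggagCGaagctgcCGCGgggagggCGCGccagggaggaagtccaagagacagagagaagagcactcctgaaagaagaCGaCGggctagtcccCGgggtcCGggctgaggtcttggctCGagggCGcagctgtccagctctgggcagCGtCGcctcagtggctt
Foxc1: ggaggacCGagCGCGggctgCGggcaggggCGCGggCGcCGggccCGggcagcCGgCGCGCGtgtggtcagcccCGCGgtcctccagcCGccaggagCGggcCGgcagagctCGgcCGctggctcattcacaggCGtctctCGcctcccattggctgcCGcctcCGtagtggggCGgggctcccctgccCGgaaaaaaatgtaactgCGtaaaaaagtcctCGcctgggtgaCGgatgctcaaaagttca

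The CG dinucleotides number 16 in 250 bases at Foxd2, 8 in 202 at Foxd1, 19 in 229 at Foxf2 and 29 in 250 at Foxc1. Over the 250 bases before the start, the 23 entries for these 21 genes had a median of 17 CG dinucleotides and 63.2% G or C, against 6 and 52.4% over all 32851 entries of the RefSeq table. The forkhead core GTAAACA or its reverse complement TGTTTAC, searched on both strands, was found in 0 of the 23 entries and in 3.17% of all entries. This says only that these letters are not in those windows.

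Under the Malat1 guide, 14 forkhead peaks rose and 0 fell. The share called higher was 5.83% of the 240 peaks, against 2.23% of all peaks called higher, 0.507% called lower and 2.73% called in either direction. Of the 14 rises, 11 lay at only 2 genes, 7 at Foxl1 and 4 at Foxs1, and Foxn3, Foxd1 and Foxd2 had 1 each. Peaks of 1 locus are not separate replicates: with called peaks within 200 kb counted as 1, the 14 rises made up 5 loci. Without Foxs1 and Foxl1, 3 of 226 peaks were called, or 1.33%. By gene, 5 of 37 (13.5%) had at least 1 risen peak, against 6.73% of the 18759 genes in the table. Forkhead genes held a median of 4 peaks and all genes a median of 3.

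Over the whole family the differences were close to those of all peaks. Peaks averaging higher under the Malat1 guide numbered 152 of 240 (63.3%), against 60.8% of all peaks, and the median difference was 0.15 on the log2 scale, against 0.09 over all peaks. Before adjustment, p was below 0.05 for 30 forkhead peaks from the authors' deposited table (12.5%), 25 of them higher and 5 lower, against 11.7% of all peaks. Without Foxs1 and Foxl1 it was 18 of 226 peaks (7.96%).

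**Figure D1:**
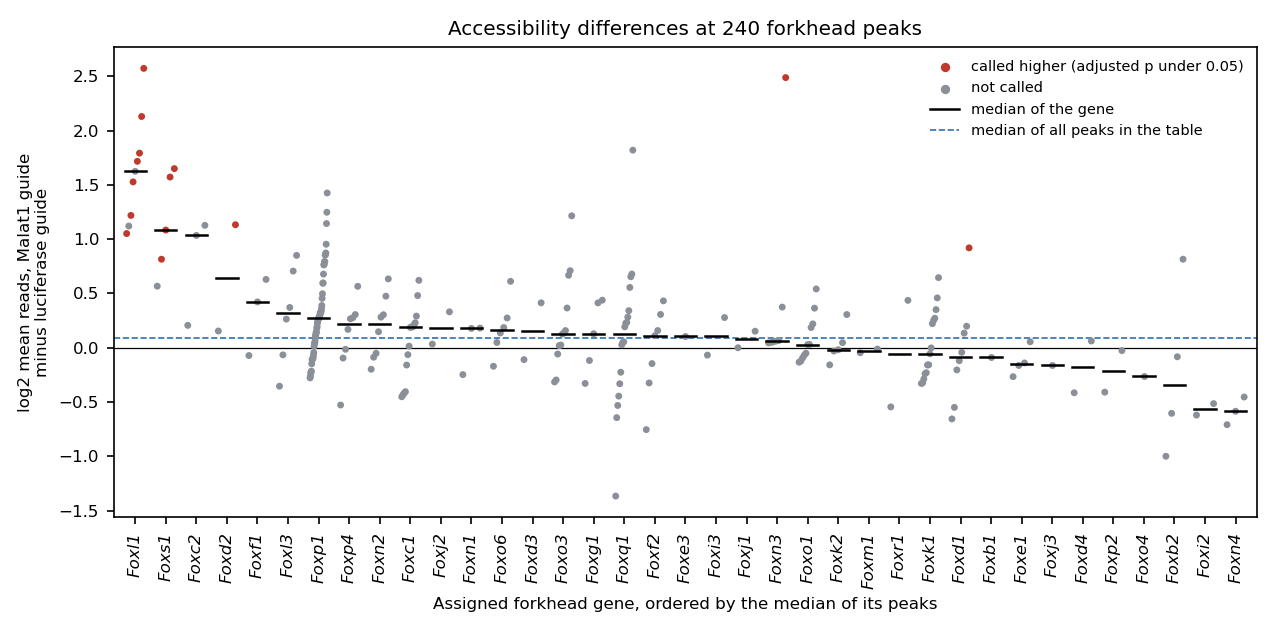
Each point is 1 of the 240 forkhead peaks, placed by its assigned gene (horizontal) and by the log2 mean reads under the Malat1 guide minus those under the luciferase guide (vertical); black bars are gene medians, red points are called peaks and the dashed line is the median of all peaks, 0.09. The Foxl1 and Foxs1 peaks all lie above 0, with medians of 1.62 and 1.08, while most genes centre near 0.

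Foxs1 showed the strongest evidence. Its gene body (gene ID 14239) is on chromosome 2, minus strand, from 152931898 to 152933208, and all 5 of its peaks averaged higher under the Malat1 guide. The leading peak, from 152925510 to 152925910, held 795 reads under the Malat1 guide and 267 under the luciferase guide. It ranked 2 of all 80881 peaks by p, with a difference of 1.57 on the log2 scale, an approximate standard error of 0.18 and, from the authors' deposited table, an adjusted p of 3.91e-14. It lies past the 3′ end of Foxs1, 5.99 kb beyond it, between that end and the end of Mylk2, the skeletal muscle myosin light chain kinase.

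The other called Foxs1 peaks lay closer to the gene. A peak from 152931465 to 152931865, only 0.033 kb beyond the gene's end, rose from 105 to 329 reads (adjusted p = 2.30e-05 from the authors' deposited table). The promoter peak, 0.397 kb upstream of the start, rose 2.12-fold from 123 to 261 reads (adjusted p = 0.00263 from the authors' deposited table). The third, 5.42 kb from the start, rose 1.76-fold from 217 to 382 reads (adjusted p = 0.0105 from the authors' deposited table), and was no longer called when differences were centred by chromosome (0.0681) or by 10 Mb window (0.0692). The fifth peak, 6.66 kb upstream, held 43.5 and 29.4 reads and was not called. Promoter, gene end and flank thus each held a risen window, all within 8.49 kb.

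Around Foxs1, 13 peaks of other genes lay within 100 kb of its outer peaks, and 9 of them averaged higher under the Malat1 guide. The called one, 6.75 kb upstream of Mylk2, rose from 398 to 676 reads. The median difference was 1.08 for the Foxs1 peaks, 0.31 for these neighbours, and 0.14 both for the 10 Mb window and for chromosome 2.

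The chromosome 8 cluster opened mostly downstream of Foxl1. Foxl1 (gene ID 14241), a factor of the mesenchyme under gut epithelium, is on the plus strand from 121127685 to 121130644, and all 9 peaks assigned to it averaged higher under the Malat1 guide. Their differences ran from 1.05 to 2.57 on the log2 scale, and 7 of the 9 rose. Of the 18759 genes, 9 had 7 or more risen peaks, and 50 had 4 or more, the number at Foxs1. Many genes held too few peaks to reach these counts, since the median over all genes was 3 peaks. Genes with 9 or more peaks, as at Foxl1, numbered 2316, and in 130 of them every peak averaged higher. Genes with 5 or more, as at Foxs1, numbered 5808, and in 642 of them every peak averaged higher.

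The most accessible Foxl1 peak, 59.7 kb from the start from 121187661 to 121188061, held 540 reads under the Malat1 guide and 232 under the luciferase guide. Its adjusted p from the authors' deposited table was 1.39e-04, with an approximate standard error of 0.24 around a difference of 1.22. The peak nearest the start, 2.06 kb upstream, rose 2.07-fold from 205 to 425 reads (adjusted p = 8.74e-04 from the authors' deposited table). Both were open already in control cells. A peak 6.20 kb from the start, beyond the gene's end, rose 3.46-fold from 49.1 to 170 reads.

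The called Foxl1 peaks at 68.0 kb and beyond held fewer reads in control cells than the called ones nearer the start. The gap was small between the peak at 114 kb, with 46.8 reads, and the one at 6.20 kb, with 49.1. The peak at 155 kb held 10.2 reads under the luciferase guide and 60.9 under the Malat1 guide, the largest ratio of the 240 peaks at 5.95-fold, and the peak at 121 kb held 9.39 and 41.1. With 5 reads added to both means, the log2 difference at 155 kb fell from 2.57 to 2.11, below the 2.21 of the called Foxn3 peak. The peaks at 114 kb and 68.0 kb rose from 46.8 to 135 and from 27.9 to 91.7 reads. The 68.0 kb peak was not called after centring by 10 Mb window (0.0601). The uncalled peaks, at 135 kb and 24.4 kb, held 33.2 against 10.8 and 22.3 against 10.2 reads, so they pointed the same way at low levels.

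Among its neighbours Foxc2 pointed the same way without passing the threshold. Foxc2, a factor of lymphatic vessels and mesenchyme, lies 8.79 kb before Foxl1. Its peak 0.432 kb inside the start held 132 reads under the Malat1 guide and 60.6 under the luciferase guide (adjusted p = 0.106 from the authors' deposited table). Its peak over the start held 78.0 and 38.1 reads (adjusted p = 0.203 from the authors' deposited table). The most open of the 3 Foxc2 peaks, 2.50 kb upstream, held 156 and 135 reads (adjusted p = 0.943 from the authors' deposited table). Foxf1, a factor of lung mesenchyme and endothelium, had 163 against 106 reads at its promoter peak, 0.405 kb upstream (adjusted p = 0.331 from the authors' deposited table). The other Foxf1 peaks held 39.9 against 29.8 reads at 0.221 kb from the start and 105 against 110 at 8.25 kb.

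All 9 Foxl1 peaks were classed as intronic in a transcript whose listed gene is Galnt2, which RefSeq places 3.10 Mb away, so the class describes another transcript than Foxl1. The 4 peaks of other genes within 100 kb of the cluster's outer peaks, 3 of them at Mthfsd between Foxf1 and Foxc2, had a median difference of -0.03 and 0 calls. The 10 Mb window over the cluster had a median difference of 0.15, and chromosome 8 of 0.11.

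**Figure D2:**
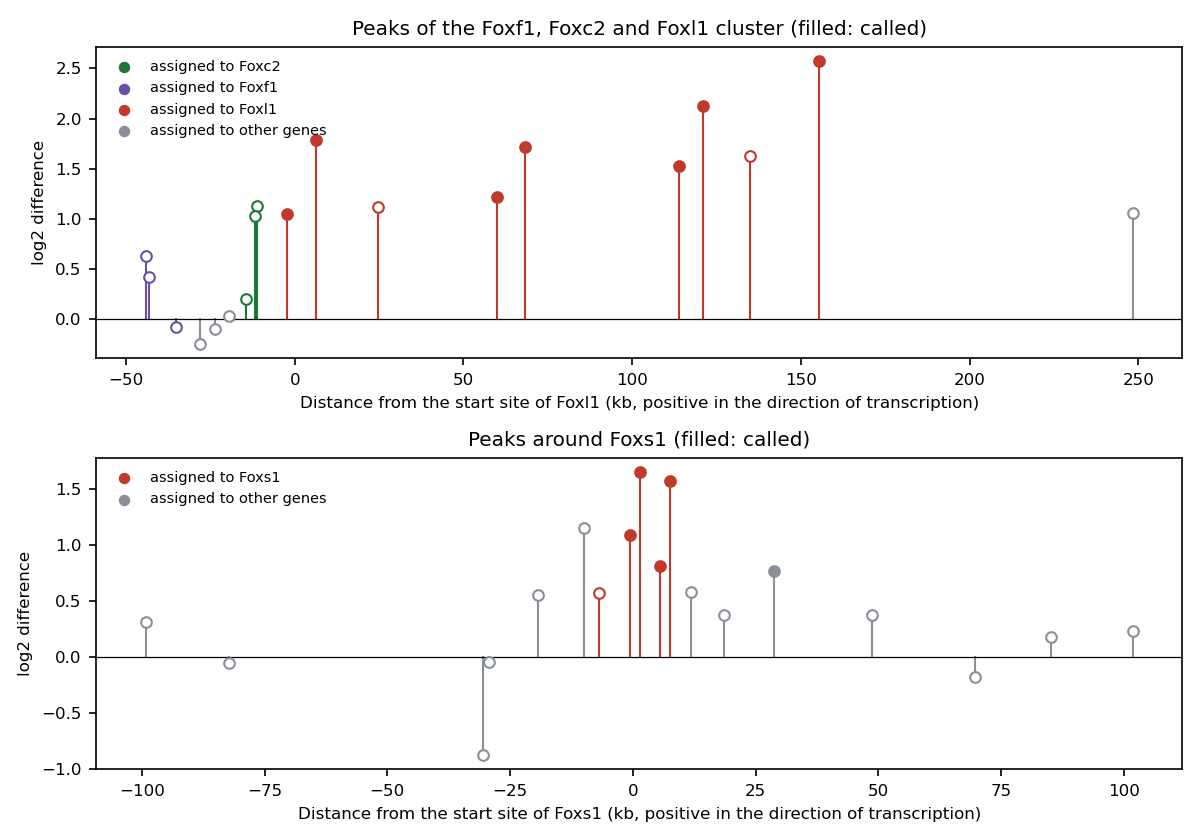
Each stem is a peak, placed by its distance in kb from the start site of Foxl1 (upper panel) or Foxs1 (lower panel), with its log2 difference between the guides as height; filled heads are called peaks and grey stems belong to other genes. In the upper panel 7 filled Foxl1 stems stand between -2.06 and 155 kb, and in the lower panel 4 filled Foxs1 stems and 1 filled stem of Mylk2 stand around the gene.

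Foxn3, Foxd1 and Foxd2 each had a single risen peak, away from a promoter peak that was not called. Foxn3, a forkhead repressor, spans chromosome 12 from 99190081 to 99563667. An intronic peak 95.3 kb from its start, from 99467881 to 99468281, rose 5.61-fold from 18.4 to 103 reads, with an approximate standard error of 0.45 around a difference of 2.49 and, from the authors' deposited table, an adjusted p of 2.60e-05. The other 5 Foxn3 peaks differed by 0.04 to 0.37, and the one over the start held 68.5 and 65.7 reads. In the 10 Mb window that holds Foxn3, 12 of 100 peaks were called.

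Foxd1, a factor of kidney stroma, had 8 peaks, of which 5 averaged lower under the Malat1 guide. The risen one, 37.0 kb from the start on chromosome 13 from 98391280 to 98391680, went from 163 to 308 reads (adjusted p = 0.00674 from the authors' deposited table). The call was lost with centring by chromosome (0.0981) or 10 Mb window (0.165), whose medians were 0.23 and 0.29. Its promoter peak, whose bases are given above, held 83.9 and 86.4 reads.

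Foxd2, an embryonic factor of mesenchyme and kidney, had 2 peaks on chromosome 4. The peak 38.4 kb from the start, from 114870024 to 114870424, rose 2.19-fold from 114 to 249 reads (adjusted p = 0.0376 from the authors' deposited table). It was the risen forkhead peak closest to the threshold, and each of 4 centrings ended the call (0.0768 to 0.101). The promoter peak shown above held 380 and 341 reads (adjusted p = 0.927 from the authors' deposited table).

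**Figure D3:**
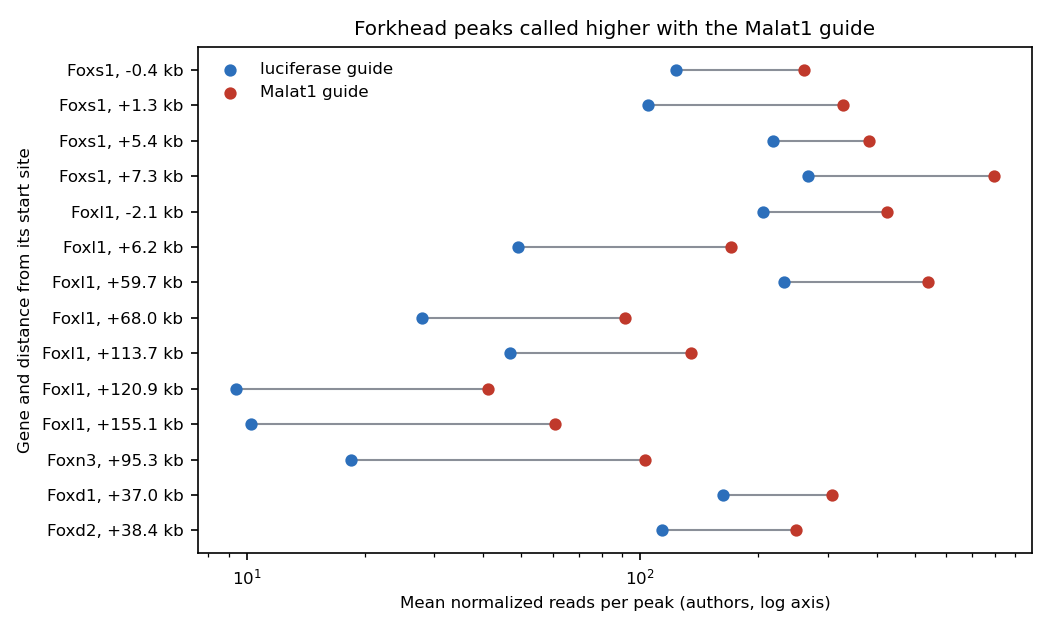
The 14 called forkhead peaks, named by gene and distance from the start site, with the authors' mean normalized reads on a log axis for the luciferase guide (blue) and the Malat1 guide (red). Every red point lies to the right of its blue point, by 1.76-fold at the least and 5.95-fold at the most.

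Risen forkhead peaks were not confined to weak windows, and none was among the 7 most open ones. Over both groups they held 25.2 to 531 reads, with 4 of the 14 below the forkhead median of 75.0, and 7 uncalled peaks held more than 531. The median rise was 2.93-fold, against 2.88-fold over all risen peaks in the table. By position, 3 of 44 forkhead peaks within 3 kb of a start site rose (6.82%), against 1.33% of all such peaks, and 11 of 196 farther out (5.61%), against 2.48%. The 3 near a start were 2 of Foxs1 and 1 of Foxl1.

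**Figure D4:**
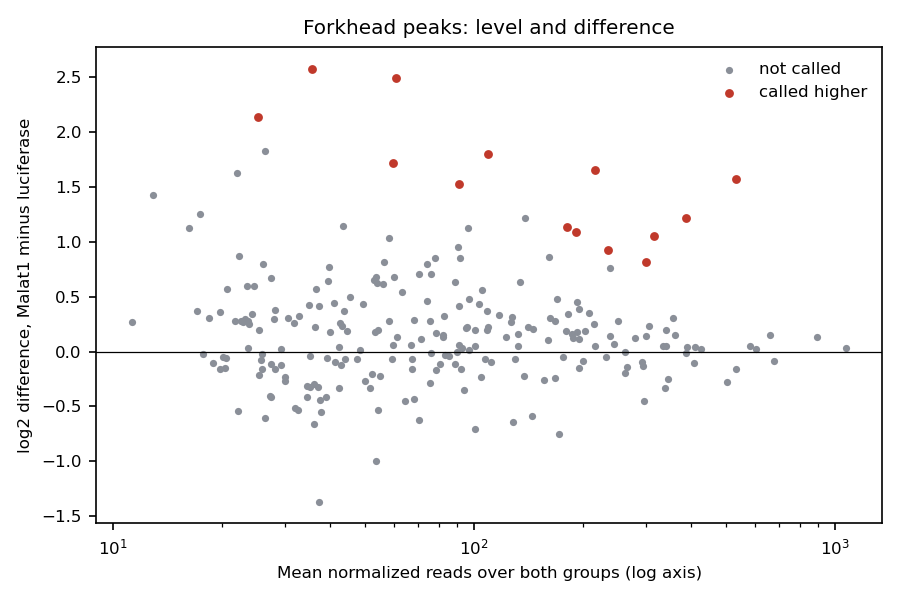
Each point is a forkhead peak, with the authors' mean normalized reads over both groups on a log axis (horizontal) and the log2 difference between the guides (vertical). Called peaks (red) span 25.2 to 531 reads and all lie above 0, while the uncalled peaks (grey) scatter on both sides of 0.

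The chromosome 13 cluster of Foxq1, Foxf2 and Foxc1, relatives of the chromosome 8 genes, had no called peak among 40, against 2.73% of all peaks called. Foxq1, a factor linked to epithelial-mesenchymal transition, had the peak just outside the threshold. This peak, 78.6 kb upstream, held 41.0 reads under the Malat1 guide and 11.6 under the luciferase guide (adjusted p = 0.0565 from the authors' deposited table). Another Foxq1 peak, 54.7 kb upstream, held 20.8 and 53.6 reads, the lowest ratio of the family (adjusted p = 0.149 from the authors' deposited table). The means of these windows of 1 gene differed in opposite directions, but neither was called. Of the 18 Foxq1 peaks, 12 averaged higher under the Malat1 guide.

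In Foxf2, a relative of Foxf1, an intronic peak 1.97 kb inside the gene held 128 reads under the Malat1 guide and 217 under the luciferase guide (adjusted p = 0.174 from the authors' deposited table). After centring by chromosome or by 10 Mb window this peak was called lower (0.0413 and 0.0441), the only forkhead peak that gained a call under the 4 centrings among those named. The Foxf2 peak over the start held 203 and 188 reads. The Foxc1 promoter held 330 and 281 reads, and its 15 peaks had a median difference of 0.19, close to the 0.23 of chromosome 13.

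Foxp1, a transcriptional repressor that acts in airway and lymphocyte development, had mostly upward differences and no call, against 2.73% of all peaks called. The Malat1 guide had the higher mean in 40 of its 52 peaks, beside 60.8% of all peaks. The median difference was 0.27 and the range from -0.28 to 1.43. Its locus lies in a 10 Mb window of chromosome 6 with a median of 0.01. For 5 of the 52, the authors' deposited table gave a p below 0.05 before adjustment, against 11.7% of all peaks. The peak with the smallest p, 568 kb from the start, held 119 and 61.6 reads (adjusted p = 0.142 from the authors' deposited table). The next ones, 147 kb and 15.4 kb from the start, held 299 against 176 and 59.6 against 27.0 reads. The start assigned here lies outside the RefSeq gene body, and the 15.4 kb peak lies 93.8 kb from that body. A peak 0.444 kb from the RefSeq gene body, listed at 109 kb from the assigned start, held 250 and 227 reads. The related Foxp4 and Foxp2 had 8 and 2 peaks with medians of 0.22 and -0.22.

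FoxO genes, the targets of Akt, had no called peak. Foxo1, Foxo3, Foxo4 and Foxo6 had 30 peaks, 20 of them averaging higher under the Malat1 guide, a median difference of 0.09 (range -0.32 to 1.21) and 0 called. With 2.73% of all peaks called, a count of 0 in 30 is near the general share. None had a p below 0.05 before adjustment, by the authors' deposited table. The Foxo3 peak over the start held 427 and 421 reads, and a peak 0.835 kb upstream 933 and 849. The widest differences at Foxo3 were 194 against 83.7 reads at 17.1 kb upstream (adjusted p = 0.765 from the authors' deposited table) and 87.7 against 53.6 reads at 6.96 kb inside the gene (adjusted p = 0.508 from the authors' deposited table).

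Foxk1 and Foxk2, which act in metabolism and autophagy, had 20 peaks with a median difference of -0.02 and none with a p below 0.05 before adjustment, by the authors' deposited table. Foxj1, the factor of motile cilia, held 262 and 263 reads at its start. Foxm1, a factor of mitotic genes, held 75.8 and 76.5 there. Foxj2 held the most open forkhead peak, 8.72 kb upstream, with 1087 and 1062 reads. These values lay close together in both groups, though without a spread between libraries no equality is shown.

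A few genes leaned lower without a call. All 3 peaks of Foxn4, a factor of retina and spinal cord, averaged lower under the Malat1 guide, with differences from -0.71 to -0.45, and for 2 the authors' deposited table gave a p below 0.05 before adjustment. Both Foxi2 peaks did too. The Foxb2 peak at 0.954 kb from the start held 35.8 reads under the Malat1 guide and 71.5 under the luciferase guide (adjusted p = 0.278 from the authors' deposited table).

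At the start sites of the family, calls were limited to Foxs1 and Foxl1. For 26 genes a peak lay within 3 kb of the assigned start. For 17 of them the nearest such peak differed by less than 0.25 on the log2 scale. The difference was upward in 16 and downward in 10, and 2 were called (7.69%), against 1.4% of the 13535 genes with such a peak. Among these nearest peaks the most open was that of Foxn2, with 695 reads under the Malat1 guide and 628 under the luciferase guide. Then came Foxo3, Foxp4 with 384 and 388, Foxd2, and Foxo6 with 346 and 334. The least open of them were those of Foxp2 with 29.6 and 39.2, Foxf1 with 39.9 and 29.8, Foxd4 with 33.3 and 44.4, Foxb2, and Foxc2. Some genes had a more open peak within 3 kb, such as Foxo3 (933 and 849), Foxf1 (163 and 106) and Foxc2 (156 and 135).

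**Figure D5:**
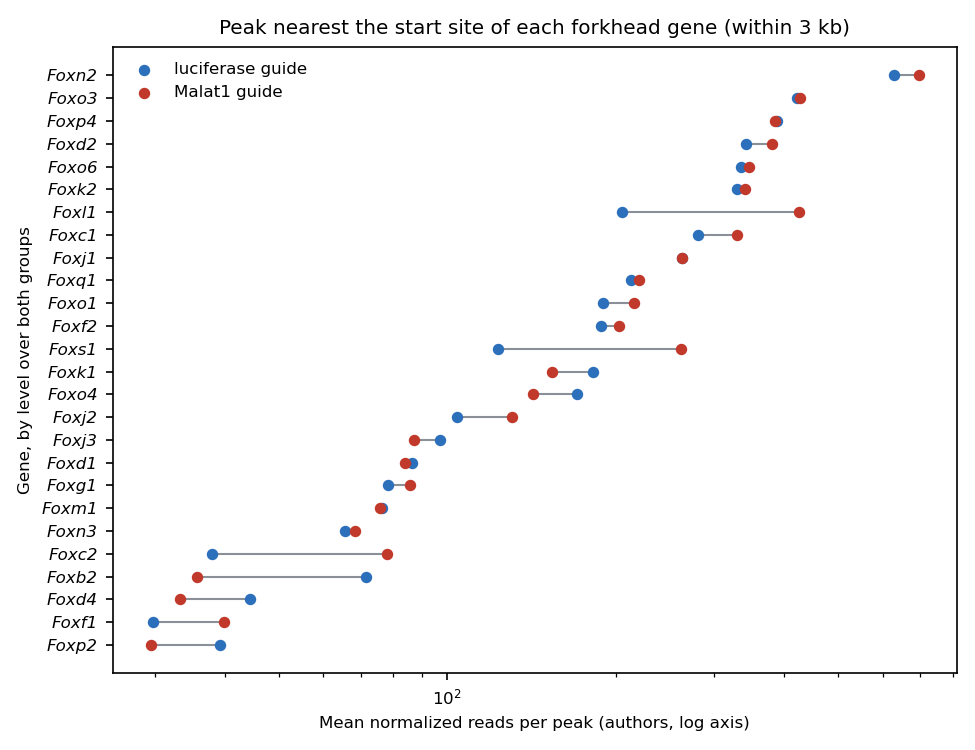
The peak nearest the start site of each of 26 forkhead genes, ordered by level, with the authors' mean normalized reads on a log axis for the luciferase guide (blue) and the Malat1 guide (red). Foxl1 and Foxs1 show wide gaps, from 205 to 425 and from 123 to 261 reads, while Foxj1, Foxo3 and Foxp4 show nearly overlapping points.

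The Foxa genes, left out by the rule, had 46 peaks, 15 at Foxa1 and 31 at Foxa2, with a median difference of -0.10 and 1 call (2.17%). It lies 44.7 kb upstream of Foxa2 and rose from 103 to 226 reads (adjusted p = 0.00436 from the authors' deposited table). Beside it, 2 Foxa1 peaks at 55.2 kb and 3.48 kb from the start held 27.3 against 62.7 and 114 against 181 reads, and were not called.

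Hedgehog genes, which act on Foxf1, Foxf2 and Foxl1, had 4 higher and 0 lower calls among 59 peaks at 13 of 14 genes. The share called higher was 6.78%, against 2.23% of all peaks, and the share called lower over all peaks was 0.507%. The list had a median difference of 0.27, against 0.09 over all peaks, and 46 peaks averaging higher under the Malat1 guide. An intronic Gli3 peak rose from 20.6 to 89.5 reads (adjusted p = 6.41e-04 from the authors' deposited table). A peak 164 kb upstream of Gli2, like Gli3 a zinc finger effector of the pathway, rose 4.16-fold from 44.7 to 186 reads, and Gli2 had 2 of the 4 calls. An intronic peak of Sufu, which restrains Gli proteins, rose from 27.2 to 92.2 reads (adjusted p = 0.0281 from the authors' deposited table). Restricted to peaks up to 50 kb from a start, 1 call was left.

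Partners and targets of Foxc1 and Foxc2 had 6 higher and 0 lower calls among 92 peaks at 13 genes. The share called higher was 6.52%, against 2.23% of all peaks, and the median difference was 0.29, against 0.09. All 6 were at Itgb3, the beta3 integrin subunit, which has 14 peaks. They were led by an exonic peak that rose from 10.3 to 62.7 reads, and its promoter peak rose 1.80-fold from 190 to 342 reads. The other 12 genes of the list, Dll4, Kdr, Hey2 and Cxcr4 among them, had no call.

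Calls among regulators and targets of FoxO were near the share of all peaks called higher, 2.23%. The 180 peaks of upstream kinases and regulators had 2 higher calls (1.11%), among them an exonic Ikbkb peak (192 to 368 reads), and a Pik3r1 peak held 246 against 129 reads without a call. The list's median difference was 0.14. FoxO target genes had 3 higher calls among 173 peaks (1.73%), with a median difference of 0.13: 1 each at Bcl2l11, a BH3-only death factor (84.4 to 211 reads), Klf4 (128 to 246 reads) and Klf2 (27.4 to 81.2 reads). After centring on the median over all peaks, 1 of these 3 calls was left.

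Foxm1 target genes had 0 calls among 46 peaks (2.73% of all peaks were called) by the authors' adjusted p. The median difference was -0.11, and 21 of the 46 averaged higher under the Malat1 guide. Before adjustment, the authors' deposited table gave 6 of the 46 a p below 0.05, against 11.7% of all peaks. The leading peaks of these genes, at Nek2, Cenpa and Cenpf, held 501 against 671, 22.2 against 50.8 and 16.5 against 39.3 reads. Genes of the Foxj1 programme of motile cilia had 1 lower call among 59 peaks (1.69%, against 0.507% of all peaks), an intronic peak of Rfx3, a regulator of cilium genes, which fell from 122 to 44.4 reads (adjusted p = 0.00753 from the authors' deposited table). The median of that list was 0.05, and its next peaks, at Ccno and Rfx2, held 728 against 536 and 260 against 174 reads and were not called.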

How the data were processed

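The table lists peaks made on mm10 with Bowtie2, MACS2, DiffBind, ChIPseeker, Picard, FastQC and deepTools, per the submitters' processing notes, which list no versions or roles. Duplicate handling, read shift, library scaling and the authors' test were not given in the sources used here. Deposited values are log2 of the authors' mean normalized reads per group, and further columns hold their fold (log2) and their p-value before and after adjustment, per the file headers. The authors' adjusted p matched Benjamini-Hochberg over all 80881 peaks within 7.40e-06. The header's dmA12 and dLuc were taken as mA2 and Con, for dmA12 because the series has a single contrast. The 4 columns of per-library values match no sample label and were not used, so no depth per library is given; summed group means had a ratio of 1.07 (Malat1 over luciferase).

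Differences are log2 means, Malat1 guide minus luciferase guide, and ratios come from the group means, with no pseudocount. Centring subtracted the median difference of all peaks, of 50 abundance bins, of the chromosome or of the 10 Mb window. It kept the standard error implied by the p-value and adjusted again over all peaks. Centring was tried on simulated data with a uniform shift and normal noise. Those data could not test a shift that varies by region, or whether the authors' p follows a normal test. Computation used Python 3.11.15, pandas 2.3.3, numpy 2.4.6 and scipy 1.17.1. The members and gene lists were chosen with earlier results of these data known. Peaks named are all called ones, the 10 uncalled ones with the smallest p, the peak nearest each start within 3 kb (in full for the 5 highest, the 5 lowest and genes with a call), and up to 3 per related list; others were chosen after their values were seen. A called peak of the related lists is not reported here. All 37 gene IDs were found in the RefSeq table of GRCm38.p6.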

Additional observations from a re-analysis of the deposited data

How the results depend on the processing

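The count of 14 risen forkhead peaks stayed within 1.5 times under thresholds of 0.01 and 0.10, a 1.5-fold minimum, a minimum of 20 reads, the 4 centrings and the Foxa genes added (10 to 15). It was 8 when only peaks up to 50 kb from a start were tested. Chosen after seeing the data, it was 3 without Foxs1 and Foxl1 and 5 counted by locus. The median difference, 0.145 as deposited and 0.054 above that of all peaks, was 0.060 centred along abundance, 0.052 by chromosome and 0.026 by 10 Mb window, which each set the median of all peaks to 0. Within 50 kb it was 0.086, against 0.079 over all such peaks. Promoter calls numbered 1 with a 1 kb window, and distal calls 7 after centring by 10 Mb window. With peaks within 50 kb, FoxO regulators had 1 call, FoxO targets 1 (also 1 when centred on the median), cilium genes 0 and hedgehog genes 1; this setting tests fewer peaks. The cause of the other changes was not tested. Over all peaks, risen ones were 81.5% of calls as deposited and 68.9% to 71.2% after centring, which removed a median of 0.09 to 0.10. A pseudocount of 5 reads was added to both means with the adjusted p kept. It can turn neither a direction nor a call, so that setting tests neither. No paired analysis was possible because no column of a single library carries a sample's name; fits per library and leaving out libraries were not run, and the error of each mean is not known.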
